A study of Macrostomum lignano with 16 samples.

Results

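In the flatworm Macrostomum lignano, 180 of 76437 assembled transcripts stood at one end of the whole experiment in newly joined worms, which had lived alone and then spent their last 24 h with a partner. In 142 of them all 4 joined libraries lay above all 12 others, and in 38 all 4 lay below all 12 others. These transcripts were selected on those values, so the joined levels given below describe the selection and carry no test. The rule further asked for a mean of at least 4 CPM, a joined mean at least 1.3 times or at most 0.77 times the isolated mean, a paired mean over 0.6 and under 1.6 times the isolated mean, and an octet mean over 0.5 and under 2 times the paired mean. CPM, counts per 1000000, here means the estimated reads of a transcript scaled to that library total, with its most abundant transcript, RNA815_80.1, left out of the total.

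All worms were adults of strain DV1, 66 to 69 days old, kept for 64 days in their social setting in artificial sea water with diatoms as food. Joined worms were alone for that time except for the last 24 h, octet worms lived in groups of 8, paired worms with 1 constant partner, and isolated worms alone. Each group has 4 libraries, and each library holds RNA from a pool of whole worms, so the spread given below is between pools and not between single worms. In such bulk material fewer cells of a type and less RNA per cell cannot be told apart. The files pair no gene names with the identifiers, and a number before a dot is shared by related transcripts of the assembly.

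M. lignano is a simultaneous hermaphrodite: each adult has testes and ovaries, and mating is reciprocal, with sperm and the seminal fluid of the prostate glands passed to the partner. Worms in larger groups are known to invest more in their testes. The joined group was set up to study short-term responses to mating, and it differs from the paired group in how long the partner had been present.

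The libraries held 7302416 to 10112451 estimated reads, and RNA815_80.1 took 9.17% to 21.5% of them. At the minimum of 4 CPM a transcript rested on 23.4 to 33.8 reads in a library. Between 64847 and 65569 transcripts had a read in joined libraries, against 60204 to 62368 in octet, 62738 to 65106 in paired and 61320 to 65016 in isolated libraries. The library sizes after TMM scaling, which sets the trimmed mean of log ratios between libraries to 0, were 1.28 times the total used for CPM in joined pools, 1.08 times in octet worms, 1.21 times in paired worms and 1.21 times in isolated worms (means of 4). That scaling therefore lowers all joined levels relative to the other groups, and the number of transcripts on each side depends on it. With TMM library sizes the same rule chose 49 transcripts with joined above and 118 with joined below, and with median-ratio size factors 49 and 131. With RNA815_80.1 kept in the total it chose 170 and 34.

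**Figure D1:**
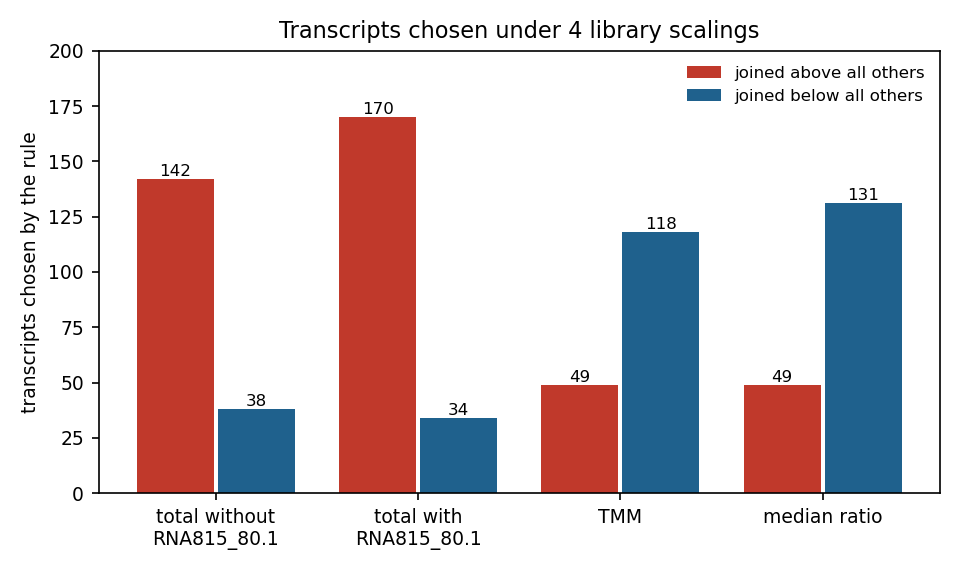
Number of transcripts chosen by the same rule (y axis) when library sizes are the column total without RNA815_80.1, the total with it, TMM sizes or median-ratio sizes (x axis). Red bars are transcripts with joined worms above all 12 other libraries and blue bars those below; the larger side is the upper one (142 and 170) with totals and the lower one (118 and 131) with TMM and median-ratio sizes.

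Of the 180 transcripts, 82 were also chosen with TMM sizes, 44 of the 142 above and all 38 below. Under all 4 scalings 70 were chosen, 41 above and 29 below. TMM sizes lower joined levels relative to the other groups, so the shift itself keeps lower transcripts in and moves upper ones toward the limits. Most of the 142 upper transcripts fell short of the rule when the libraries were scaled in that way. With RNA815_80.1 kept in the total, 113 of the 142 and 29 of the 38 were chosen again. With TMM sizes the median joined to isolated ratio of the 180 was 1.31 in the upper set and 0.683 in the lower set.

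Among the 23788 transcripts of at least 4 CPM, 311 had all 4 joined libraries above the 12 others, which is 1.31%, and 136 had them below, which is 0.572%. The limit on the joined to isolated ratio took away 157 of the upper and 96 of the lower transcripts. The limits on the paired and octet means took away 12 and 2 more. The same question asked of the other groups gave 478 transcripts with octet libraries above and 880 with octet libraries below the rest, 12 and 4 for paired libraries, and 27 and 76 for isolated libraries.

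The 142 upper transcripts were scarce. Their mean level had a median of 7.67 CPM, against 12.0 CPM over the 23788, and 87 of them were under 10 CPM. Their joined to isolated ratio of means ran from the limit of 1.3 to 1.89 with a median of 1.38, and 22 reached 1.5. The lowest joined library stood above the highest other library by a median of 0.06 log2 units, and in 60 of the 142 by less than 0.05. The 38 lower transcripts were more abundant, with a median of 34.6 CPM, and 10 of them were at 100 CPM or more. Their joined to isolated ratio ran from 0.513 to 0.764 with a median of 0.724, and the median gap to the nearest other library was 0.13 log2 units, with 9 under 0.05.

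The widest upper ratio belonged to RNA815_23240, a scarce transcript. It had 6.47, 5.96, 6.27 and 6.53 CPM in joined pools, against 1.54, 2.03, 3.65 and 4.71 CPM in octet pools, 3.31, 4.30, 3.87 and 3.23 CPM in paired pools and 2.45, 3.97, 3.70 and 3.27 CPM in isolated pools. The joined libraries lay close together and 1.89 times the isolated mean, while the octet libraries spread over the whole range of the other groups. RNA815_133 had 16.3, 17.6, 14.1 and 16.8 CPM in joined pools, against 4.59, 8.90, 5.91 and 2.73 CPM in octet pools, 7.99, 9.25, 7.61 and 8.44 CPM in paired pools and 9.28, 10.3, 6.08 and 11.3 CPM in isolated pools. Its joined mean was 1.75 times the isolated mean, and octet and isolated libraries overlapped.

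RNA815_8218 had the widest gap of the upper set, 0.37 log2 units. It stood at 10.1, 8.63, 8.76 and 8.54 CPM in joined pools, against 4.14, 3.27, 3.93 and 3.14 CPM in octet pools, 5.604, 6.60, 4.13 and 4.59 CPM in paired pools and 5.36, 6.35, 5.71 and 4.79 CPM in isolated pools. Every octet library was under every isolated library, although this difference did not pass the test across all transcripts (octet minus isolated log2 fold change -0.44 ± 0.20, SE, limma-voom adjusted p = 0.118). Both groups of libraries also entered the rule. The other 5 of the 8 largest upper ratios, those of RNA815_13285.1, RNA815_31594, RNA815_22849, RNA815_55586 and RNA815_17371, were 1.65 to 1.75, at joined means of 7.96 to 10.5 CPM. RNA815_4588.1 combined a modest ratio of 1.35 with a gap of 0.31 log2 units, because its joined libraries were nearly alike at 17.2, 17.7, 17.7 and 17.6 CPM, against 8.18 to 10.7 CPM in octet, 11.1 to 13.1 CPM in paired and 12.3 to 13.9 CPM in isolated pools.

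In 3 of the 4 most abundant upper transcripts, all but RNA815_551.1, octet worms were lower than isolated worms by the test across all transcripts. Of all transcripts of at least 4 CPM, 10.8% were lower by that test. The libraries compared also entered the rule, so this count only describes chosen transcripts. RNA815_12566.2, the highest of the 4, had 286, 321, 302 and 353 CPM in joined pools, against 99.9, 136, 110 and 119 CPM in octet pools, 198, 178, 157 and 186 CPM in paired pools and 252, 230, 212 and 275 CPM in isolated pools. All groups were separate from one another in the order joined, isolated, paired, octet. RNA815_5351 had 150, 146, 168 and 134 CPM in joined pools, against 34.5, 35.0, 52.9 and 29.98 CPM in octet pools, 79.4, 103, 74.2 and 35.7 CPM in paired pools and 93.3, 112, 102 and 126 CPM in isolated pools. Octet and isolated libraries did not overlap, and 1 paired library stood among the octet ones.

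RNA815_19366 averaged 150 ± 11.0 CPM in joined pools, 58.2 ± 6.76 CPM in octet pools, 81.1 ± 10.6 CPM in paired pools and 115 ± 17.8 CPM in isolated pools (SD, n = 4 each). RNA815_551.1 averaged 64.9 ± 6.76 CPM in joined pools, 34.4 ± 4.24 CPM in octet pools, 47.4 ± 7.82 CPM in paired pools and 49.7 ± 7.99 CPM in isolated pools (SD, n = 4 each). RNA815_12566.2, RNA815_19366 and RNA815_551.1 were no longer chosen with TMM sizes, as were RNA815_4588.1 and the 2 transcripts just inside the ratio limit.

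**Figure D2:**
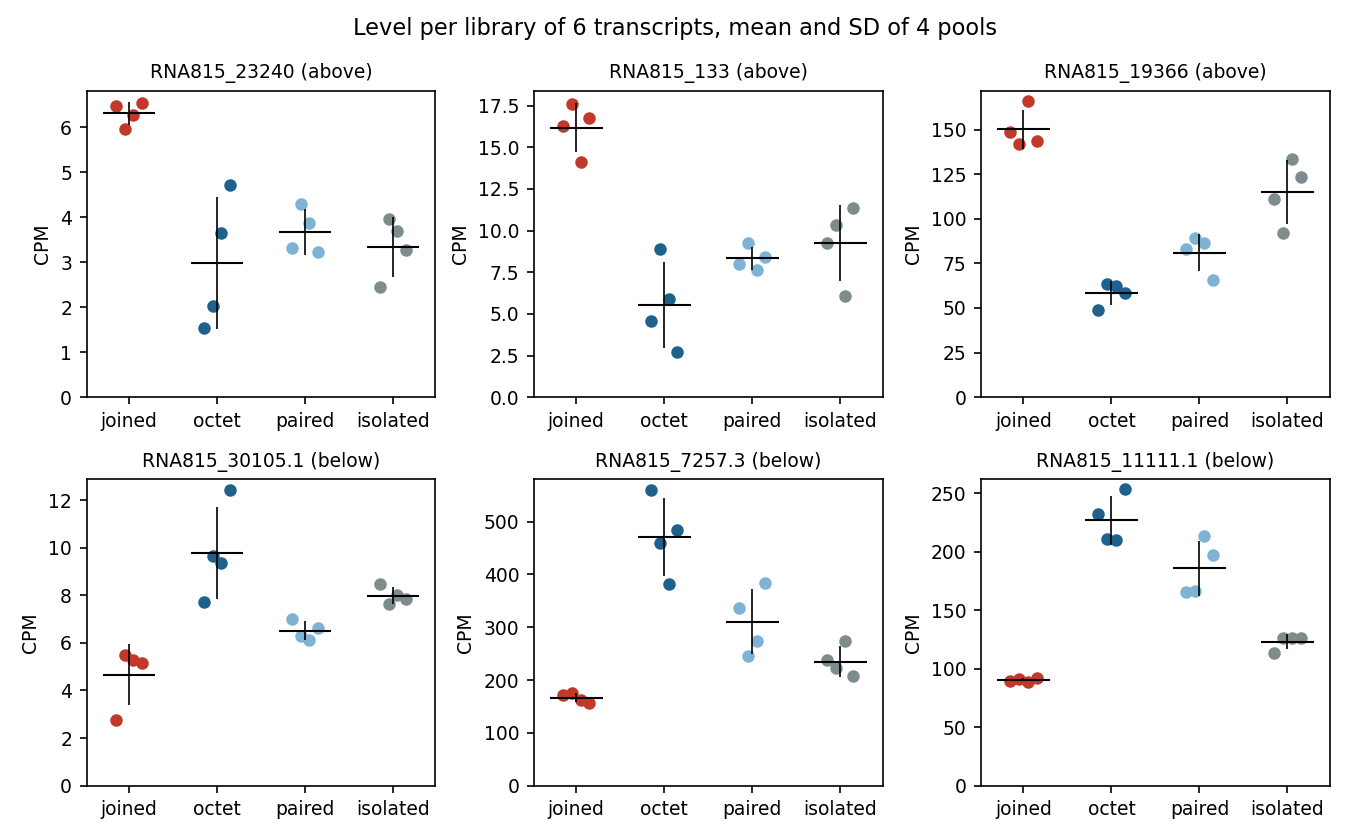
CPM (y axis, from 0) in each of the 4 libraries of joined, octet, paired and isolated worms (x axis) for 3 transcripts of the upper set (top row) and 3 of the lower set (bottom row). Points are libraries, horizontal lines are means and vertical lines are 1 SD of 4 pools; in RNA815_19366 and RNA815_11111.1 the octet and isolated libraries lie apart, while in RNA815_23240 and RNA815_133 they overlap.

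In the lower set the ratio was farthest from 1 in RNA815_28254. It had 3.75, 2.82, 3.67 and 2.79 CPM in joined pools, against 12.1, 8.26, 8.00 and 10.3 CPM in octet pools, 5.09, 4.02, 7.73 and 9.51 CPM in paired pools and 7.51, 5.40, 5.85 and 6.67 CPM in isolated pools. Its joined mean was 0.513 times the isolated mean, and its octet libraries lay above all isolated ones. RNA815_30105.1 had 2.77, 5.48, 5.27 and 5.15 CPM in joined pools, against 7.74, 9.63, 9.35 and 12.4 CPM in octet pools, 7.02, 6.30, 6.11 and 6.63 CPM in paired pools and 8.45, 7.65, 8.02 and 7.83 CPM in isolated pools. Here paired worms stood under isolated worms with no overlap, an order that 4 of the 38 lower transcripts showed in their means.

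RNA815_11111.1 had the widest gap of the lower set, 0.30 log2 units. It had 89.8, 91.3, 89.1 and 92.3 CPM in joined pools, against 232, 211, 210 and 254 CPM in octet pools, 166, 167, 214 and 197 CPM in paired pools and 113, 126, 126 and 127 CPM in isolated pools. The joined libraries were nearly alike. Joined and isolated libraries were apart, and paired and octet libraries overlapped above both.

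RNA815_15687 averaged 261 ± 14.4 CPM in joined pools, 558 ± 90.8 CPM in octet pools, 416 ± 41.9 CPM in paired pools and 349 ± 18.0 CPM in isolated pools (SD, n = 4 each). RNA815_14920, of a like level, averaged 225 ± 8.97 CPM in joined pools, 484 ± 76.3 CPM in octet pools, 358 ± 31.6 CPM in paired pools and 299 ± 17.7 CPM in isolated pools (SD, n = 4 each). In both, the order of the means was octet, paired, isolated, joined. The other 6 of the 8 lowest ratios, those of RNA815_21160.1, RNA815_41569, RNA815_8893.4, RNA815_15968, RNA815_20777.1 and RNA815_14838.1, were 0.625 to 0.680, and their joined means ran from 5.19 to 33.4 CPM. RNA815_9751 stood at 25.4, 26.8, 27.3 and 26.3 CPM in joined pools, 0.24 log2 units under the nearest other library.

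At the edge of the rule the values formed no step. RNA815_23768 and RNA815_7690.1 were the 2 upper transcripts just inside, both with a ratio that rounds to 1.3, and RNA815_28391.1 and RNA815_3395 met every other limit and lay just outside it. In RNA815_3395 the joined libraries had 15.2, 16.0, 15.3 and 16.4 CPM, against 13.7, 12.2, 8.95 and 13.5 CPM in isolated libraries. On the lower side RNA815_908.4 was just inside with a ratio of 0.764, RNA815_21250 was next, and RNA815_6252 and RNA815_7257.2 lay just outside with 0.771 and 0.773.

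**Figure D3:**
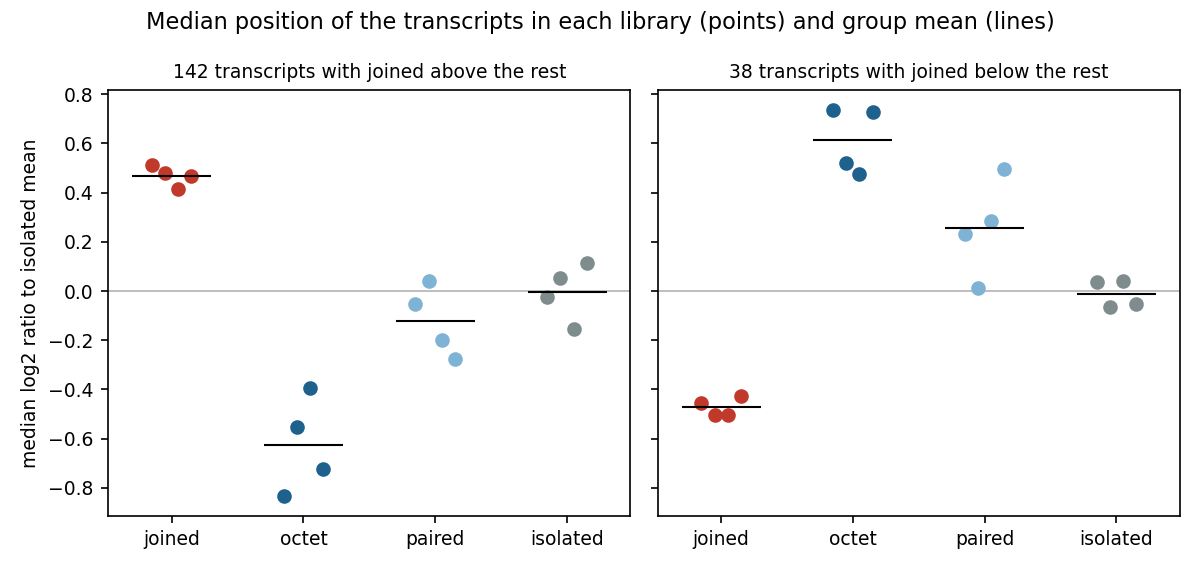
Median over the 142 upper (left) and 38 lower (right) transcripts of the log2 ratio of each library's CPM to the isolated mean (y axis), by group (x axis). Points are single libraries and lines are group means; joined libraries were set apart by the selection, and octet libraries lie on the other side of the isolated ones in both panels.

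The place of the other 3 groups was partly set by the rule. A transcript whose octet, paired or isolated libraries reached the joined level could not enter, so octet worms stood on one side of joined worms by selection, and the order of octet, paired and isolated worms is given as a description. The octet group mean lay farthest from the joined one in both sets, although in the lower set the paired library of replicate 4 (0.50) was farther off than the octet library of replicate 3 (0.48). The median log2 ratio to the isolated mean over the upper set was 0.41 to 0.51 in joined libraries, -0.84 to -0.39 in octet libraries, -0.28 to 0.04 in paired libraries and -0.16 to 0.11 in isolated libraries. Over the lower set it was -0.50 to -0.43 in joined libraries, 0.48 to 0.74 in octet libraries, 0.01 to 0.50 in paired libraries and -0.07 to 0.04 in isolated libraries. No octet library overlapped an isolated one in either set, while the paired libraries reached into the isolated range in both.

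Summed over the 142 upper transcripts, joined libraries held 2610 to 2702 CPM, octet libraries 1022 to 1333 CPM, paired libraries 1439 to 1854 CPM and isolated libraries 1764 to 2119 CPM. Summed over the 38 lower transcripts, joined libraries held 3385 to 3620 CPM, octet libraries 7024 to 8816 CPM, paired libraries 5026 to 6251 CPM and isolated libraries 4416 to 5267 CPM. In both sums the octet, paired and isolated groups followed each other in the same order of distance from the joined group, with isolated nearest.

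The octet mean was under the isolated mean in 140 of the 142 upper transcripts, a direction found in 59.9% of all 23788, and over it in all 38 lower transcripts, a direction found in 40.1%. The 23788 were not selected in the same way, so the distance between these shares is not a measure of the set apart from its selection. Octet was the lowest of the 3 other groups in 138 of the 142 (52.7% of all), and the highest in 35 of the 38 (30.02% of all). The full order isolated, paired, octet from high to low held in 107 of the 142 (37.1% of all), and the order octet, paired, isolated held in 31 of the 38 (23.5% of all). The median octet to isolated ratio of means was 0.658 in the upper set, 1.58 in the lower set and 0.913 over all transcripts. With TMM sizes these medians were 0.734, 1.78 and 1.02, and the octet mean was under the isolated mean in 133 of the 142 and over it in all 38.

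**Figure D4:**
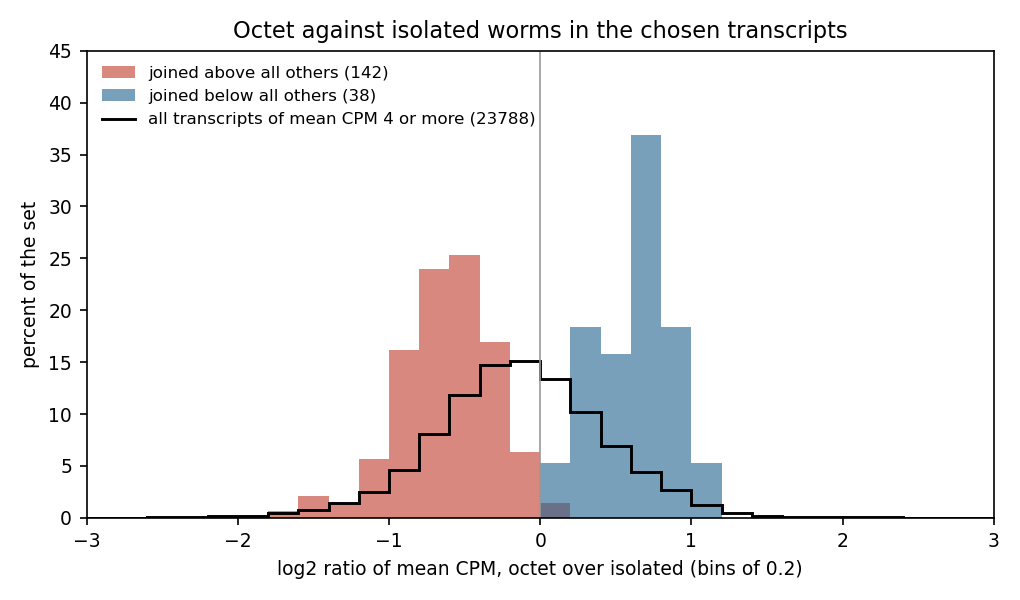
Distribution of the log2 ratio of mean CPM in octet over isolated worms (x axis, bins of 0.2), as a percent of each set (y axis). Red is the upper set of 142, blue the lower set of 38, and the black line all 23788 transcripts of mean CPM at least 4, of which 86 lie outside the axis; the upper set lies left of 0 but for 2 transcripts and the lower set lies right of 0.

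All 4 octet libraries were under all 4 isolated libraries in 61 of the 142 upper transcripts, against 15.7% of all, and above them in 24 of the 38 lower transcripts, against 12.5% of all. In the fit across 40265 transcripts (limma-voom, Benjamini-Hochberg adjusted p under 0.05), 45 of the 142 fell in octet against isolated worms and none rose, where 8.65% of all tested transcripts fell. With column totals, the scaling of the rule, 85 of the 142 fell, where 6486 of all 40265 fell. Of the 38 lower transcripts 33 rose in octet worms and none fell, where 12.8% of all tested rose; with column totals 27 rose, where 3410 of all 40265 rose. Among the 23788 transcripts of at least 4 CPM the shares were 10.8% lower and 18.4% higher. The median fitted log2 fold change was -0.44 in the upper set and 0.82 in the lower set, with a typical 95% interval of 0.43 and 0.35 to either side. These counts use the isolated and octet libraries that also entered the rule, and the shares of all transcripts, which were not selected, are given for scale only.

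The upper transcript with the strongest fall in octet worms was RNA815_8058.1, named here after its values were seen. It had 71.8, 66.7, 71.9 and 55.7 CPM in joined pools, against 12.8, 16.6, 19.2 and 11.8 CPM in octet pools, 28.7, 36.0, 29.0 and 17.8 CPM in paired pools and 45.6, 53.6, 39.6 and 44.8 CPM in isolated pools. The octet minus isolated log2 fold change was -1.45 (limma-voom adjusted p = 4.83e-06), and the 4 octet libraries were all under the 4 isolated ones. RNA815_12566.2 had a log2 fold change of -0.89 ± 0.12 (SE, limma-voom adjusted p = 2.98e-05), and RNA815_5351 one of -1.36 ± 0.21 (SE, limma-voom adjusted p = 9.58e-05). RNA815_23240 and RNA815_133, first among the upper ratios, did not pass, at -0.13 ± 0.28 and -0.66 ± 0.24 (SE, limma-voom adjusted p = 0.776 and 0.0574). The octet and isolated libraries compared also entered the rule, so these p-values only describe chosen transcripts.

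In the lower set RNA815_11111.1 had an octet minus isolated log2 fold change of 1.05 ± 0.13 (SE, limma-voom adjusted p = 5.80e-06), with every octet library above every isolated one. RNA815_15687 and RNA815_14920 had 0.83 ± 0.14 and 0.85 ± 0.14 (SE, limma-voom adjusted p = 0.000246 and 0.000144). RNA815_28254, whose joined ratio was the lowest, had 0.76 ± 0.24 (SE, limma-voom adjusted p = 0.0280). RNA815_30105.1 did not pass, at 0.43 ± 0.18 (SE, limma-voom adjusted p = 0.101). Here too the libraries compared also entered the rule, so these p-values only describe chosen transcripts.

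The exceptions were few. RNA815_36614 and RNA815_5210.2 were the 2 upper transcripts with an octet mean over the isolated mean, and both differed little between the 3 other groups. RNA815_36614 had 7.18, 7.53, 8.64 and 7.72 CPM in joined pools, against 5.56, 7.17, 5.19 and 4.57 CPM in octet pools, 4.20, 7.17, 6.67 and 4.42 CPM in paired pools and 5.82, 5.40, 4.04 and 6.33 CPM in isolated pools. Its lowest joined library, at 7.176 CPM, stood barely above its highest paired library, at 7.174 CPM. RNA815_16157 and RNA815_33300 were the other 2 upper transcripts in which octet was not the lowest group, and RNA815_25730, RNA815_31503.2 and RNA815_4606.1 the 3 lower ones in which it was not the highest. All these were named after their values were seen.

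Between paired and isolated worms, a contrast the rule bounded, few transcripts passed, and they are named for passing, after their values were seen. RNA815_1214.2 and RNA815_8058.1 of the upper set were lower in paired worms, 2 of 142 where 0.44% of all tested were lower. RNA815_1214.2 had 18.5, 22.2, 21.4 and 16.6 CPM in paired pools and 32.0, 27.0, 35.7 and 35.4 CPM in isolated pools (log2 fold change -0.71 ± 0.15, SE, limma-voom adjusted p = 0.0112). RNA815_11111.1 and RNA815_6083.1 of the lower set were higher in paired worms, 2 of 38 where 1.37% of all tested were higher.

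Between octet and paired worms, also bounded, RNA815_3998 and RNA815_8058.1 fell, 2 of 142 where 0.407% of all tested fell, and 11 of the 38 lower transcripts rose where 1.03% rose. The counts for these 2 contrasts changed when single libraries were left out. The adjustment runs over all transcripts, so changes in the members were not set apart from changes over the whole table. Without paired replicate 4, octet against paired worms gave 45 members, and without octet replicate 1, paired replicate 1 or paired replicate 2 it gave 0; the fit to the 8 libraries alone also gave 0. Paired against isolated worms gave 1 member without paired replicate 1 and 2 without paired replicate 3 or isolated replicate 1.

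The contrasts of joined worms chose the transcripts, and their counts only describe the choice. In the fit across all transcripts no transcript passed between joined and isolated worms (0% of 40265; smallest limma-voom adjusted p = 0.739), and none of the 180 did. Limma-trend also called 0 of the 180, and the number it called over all transcripts is not given here. At an unadjusted p under 0.05, 89 of the 142 were higher, where 2.98% of all were, and 37 of the 38 were lower, where 2.91% were. The median fitted log2 fold change was 0.39 in the upper set and -0.54 in the lower set, at a median SE of 0.19 and 0.18.

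Against paired worms 42 of the 142 were higher in joined worms (1.33% of all tested), and 31 of the 38 were lower (3.25% of all tested). Against octet worms 126 of the 142 were higher (16.2% of all tested) and 38 of the 38 were lower (18.6% of all tested). The median joined to paired ratio was 1.53 in the upper set and 0.599 in the lower set, and the median joined to octet ratio was 2.12 and 0.457. Without paired replicate 1, or without paired replicate 3, the joined against paired count was 48 in place of 73 members. The number called over all transcripts in those fits is not given here, and a count of members can follow it.

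The rule was also applied without 1 joined library at a time, and the position of the left-out library is given as a description. The choice without joined replicate 1 held 174 upper transcripts, and replicate 1 lay above all 12 others in 73.0% of them, against 15.4% of all transcripts. The shares for replicates 2, 3 and 4 were 52.3%, 38.2% and 39.0%, against 18.8%, 12.6% and 13.5% of all. In the lower set the shares were 59.2%, 56.3%, 60.6% and 40.0%, against 8.74%, 7.36%, 9.74% and 4.32% of all. The same 12 other libraries set the limits in both steps, so part of these shares is built in, and how large a part was not tested. The shares of all transcripts, which were not selected, are given for scale only, and the left-out shares are no test of the set. The median fold to the isolated mean of the left-out library was 1.15 to 1.31 in the upper choices and 0.794 to 0.904 in the lower ones, nearer to 1 than the medians of 1.38 and 0.724 that the full rule gave.

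The other library nearest to the joined ones was most often an isolated one. This was so in 87 of the 142 upper transcripts, 43 of them with isolated replicate 4, followed by paired libraries in 47, 26 of them with paired replicate 2, and octet libraries in 8. In the lower set the nearest was isolated in 29, paired in 9 and octet in 0 of 38. The farthest library was an octet one in 128 of the 142 and 34 of the 38. Isolated replicate 4 therefore sets the border of the upper set more than any other library, and without it the rule chose 270 transcripts above and 77 below.

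A further 110 transcripts shared a number with a chosen one and were not chosen themselves; the estimation divides reads between like sequences, so their values are not independent of the chosen ones. A dot suffix was carried by 35.2% of the upper, 63.2% of the lower and 33.9% of all 23788 transcripts, and a value other than a whole number, which marks divided reads, was present in 57.0%, 78.9% and 51.9%. Of the partners with at least 4 CPM, the joined mean lay on the chosen transcript's side of the isolated mean in 21 of 23 on the upper side and 22 of 24 on the lower side, against 61.1% of all transcripts above and 38.9% below. All 4 joined libraries were beyond the 12 others on that side in 3 of the 23 and 4 of the 24, where 1.31% and 0.572% of all were. In octet worms 14 of the 23 were lower and 20 of the 24 were higher than in isolated worms by the same test (limma-voom, adjusted p under 0.05), where 10.8% and 18.4% of all transcripts of at least 4 CPM were.

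Number 12566 had 4 such partners, and RNA815_12566.1 was the most abundant. It had 668, 646, 654 and 728 CPM in joined pools, against 206, 253, 238 and 212 CPM in octet pools, 386, 371, 311 and 354 CPM in paired pools and 555, 499, 496 and 567 CPM in isolated pools. It kept the order of RNA815_12566.2 with no overlap of joined with any other group, and missed the ratio limit. RNA815_12566.3 and RNA815_12566.4 had their highest isolated library within the joined range. RNA815_12566.5 had 33.4, 39.8, 33.3 and 42.2 CPM in joined pools and 36.5, 32.2, 33.6 and 33.3 CPM in isolated pools, and these overlapped.

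Number 7257 held 8 transcripts, of which RNA815_7257.3 and RNA815_7257.8 were chosen. RNA815_7257.3 had 171, 176, 163 and 157 CPM in joined pools, against 561, 460, 381 and 484 CPM in octet pools, 336, 247, 275 and 384 CPM in paired pools and 238, 222, 273 and 207 CPM in isolated pools. RNA815_7257.8 had 911, 757, 990 and 947 CPM in joined pools, against 2653, 2231, 1880 and 1981 CPM in octet pools, 1409, 1168, 1487 and 1659 CPM in paired pools and 1194, 1163, 1349 and 1073 CPM in isolated pools. In both, octet libraries lay above every isolated and joined library.

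The most abundant of the 8, RNA815_7257.2, had 1278, 1483, 1297 and 1559 CPM in joined pools, against 4498, 3946, 3090 and 3990 CPM in octet pools, 2611, 2165, 2551 and 3134 CPM in paired pools and 1752, 1920, 1957 and 1640 CPM in isolated pools. In 4 of the 8 joined and isolated libraries overlapped. RNA815_7257.1 had 182, 135, 169 and 187 CPM in joined pools and 206, 172, 259 and 241 CPM in isolated pools. RNA815_7257.4 had 10.4, 7.99, 11.1 and 18.4 CPM in joined pools and 8.102, 10.2, 18.3 and 17.1 CPM in isolated pools, and RNA815_7257.5 and RNA815_7257.6 overlapped likewise.

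**Figure D5:**
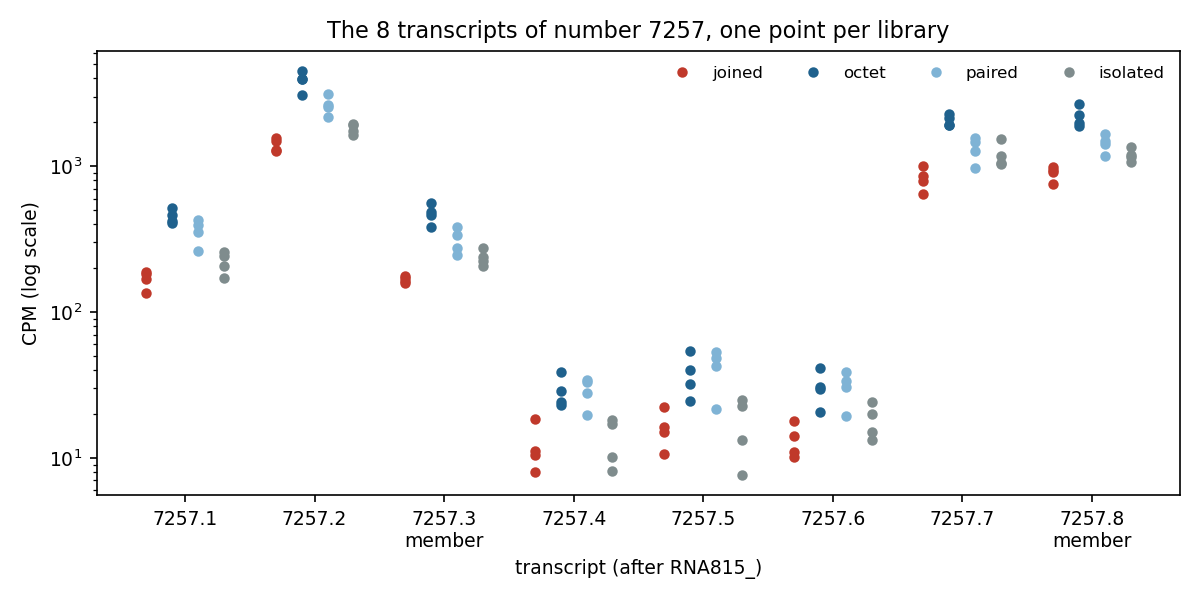
CPM on a log axis (y axis) of the 8 transcripts of number 7257 (x axis) in single libraries of joined, octet, paired and isolated worms, drawn left to right for each transcript. RNA815_7257.3 and RNA815_7257.8 are the chosen ones; octet libraries lie above joined libraries in all 8, while joined and isolated libraries overlap in RNA815_7257.1, RNA815_7257.4, RNA815_7257.5 and RNA815_7257.6.

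Number 19933 was the other one with 2 chosen transcripts. RNA815_19933.1 had 53.6, 53.2, 50.6 and 55.3 CPM in joined pools, against 138, 99.0, 132 and 169 CPM in octet pools, 87.7, 69.5, 94.5 and 104 CPM in paired pools and 68.1, 61.4, 99.2 and 63.9 CPM in isolated pools. RNA815_19933.2 averaged 78.3 ± 6.99 CPM in joined pools, 182 ± 40.8 CPM in octet pools, 137 ± 27.0 CPM in paired pools and 108 ± 18.8 CPM in isolated pools (SD, n = 4 each). In both, isolated replicate 3 was the highest isolated library and stood among the paired ones.

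RNA815_4988.2, the second most abundant lower transcript, had 1042, 939, 914 and 897 CPM in joined pools, against 1942, 1333, 1759 and 1779 CPM in octet pools, 1478, 1431, 1587 and 1269 CPM in paired pools and 1242, 1218, 1428 and 1134 CPM in isolated pools. Octet replicate 2 stood within the isolated range. Its partner RNA815_4988.1 had 423, 491, 440 and 455 CPM in joined pools and 578, 568, 540 and 616 CPM in isolated pools, again with no overlap. Number 908 did not move as one. RNA815_908.4 had 194, 219, 194 and 216 CPM in joined pools and 247, 244, 303 and 282 CPM in isolated pools, while RNA815_908.1 had 26.1, 32.0, 31.1 and 28.0 CPM in joined pools, 14.4, 15.9, 15.7 and 12.5 CPM in octet pools and 25.5, 26.5, 17.8 and 20.8 CPM in isolated pools. RNA815_908.1 was thus lowest in octet worms, where RNA815_908.4 was highest.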

How the data were processed

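Per the labels' protocols, RNA was extracted from whole worms with TRIzol and made into mRNA libraries, which were read as single-end 100 bp reads per the series' design text. Bowtie 0.12.7 and RSEM 1.1.19 are named in the submitters' processing notes. The authors deposited, for each transcript, an estimated count that is not whole in 23.8% of cells and is written with a decimal comma. In that form it could not be declared a count, so the deposited values, of a kind other than plain counts, were tested with limma-voom (limma 3.58.1, R 4.3.3; pseudocount 0.5 in log2 CPM) after rounding and TMM scaling. The fit took all 16 libraries with 4 group terms (12 residual and 10.3 prior degrees of freedom) and the 40265 transcripts that reached 1.26 CPM (10 reads at median depth) in at least 4 libraries and summed to at least 15. For this limit CPM was taken on the full library total, with RNA815_80.1 kept in. All tests were two-sided and adjusted over the 40265 transcripts. Fold changes in the fit use TMM sizes and CPM levels do not.

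The transcripts, the lists and the tests were chosen with earlier results of these data known. Named transcripts are, on each side, the 8 with the joined to isolated ratio farthest from 1, the 4 most abundant, the 4 with the widest gap, those sharing a number with another chosen one, and 2 just inside and 2 just outside the ratio limit; others are said to be named after their values were seen. Depth was 7302416 to 10112451 estimated reads. Replicates are separate pools, and the p-values set differences between group means against the spread between pools. The scripts were tested on simulated counts. Sequences and annotation were not used here.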

Additional observations from a re-analysis of the deposited data

Results flagged for a closer look

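In 156 groups of 4 libraries looked at, 8 had a library whose gap to the nearest other, as a share of the group's range, was above the critical value of Dixon's test for 4; chance gives about 1 in 20 groups. RNA815_4588.1 had 1 low joined library (17.2 CPM, share of the range 0.88) and RNA815_30105.1 another (2.77 CPM, 0.881), while RNA815_8218 (10.1 CPM, 0.861) and RNA815_15968 (12.5 CPM, 0.879) had 1 high joined library each. RNA815_22849 had 1 high paired library (5.74 CPM, 0.83), and RNA815_11111.1 had 1 low isolated library (113 CPM, 0.945). For whole libraries, octet replicate 1 was the deepest of its group (10112451 estimated reads, 0.936), and joined replicate 4 had the fewest transcripts with a read of its group (64847, 0.92). In RNA815_30105.1 the low joined library was replicate 1, and the other 3 joined libraries were also under all others.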

How the results depend on the processing

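The upper and lower counts of 142 and 38 became 49 and 118 with TMM sizes and 49 and 131 with median-ratio sizes, in which joined libraries are scaled down. A minimum of 10 CPM left 55 above, no minimum gave 292 and 58, and ratios of 1.5 and 0.67 left 22 and 5. Leaving out 1 library gave 133 to 356 above and 38 to 120 below. By construction fewer libraries leave fewer limits to meet; of the upper counts, 239, 356 and 331 came without joined replicates 2, 3 and 4, and 226 and 270 without isolated replicates 2 and 4. Of the lower counts, 71, 87, 66 and 120 came without joined replicates 1 to 4, and 63, 61 and 77 without isolated replicates 2, 3 and 4.

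At an adjusted p under 0.01, called members were 44 in place of 78 for octet against isolated, 39 in place of 73 for joined against paired, 0 in place of 4 for paired against isolated and 0 in place of 13 for octet against paired, and partners sharing a number 16 in place of 28 for joined against paired; fewer calls follow from the threshold. Octet against isolated gave 57 to 93 when 1 library was left out, and 112 with column totals (27 higher and 85 lower, against 33 and 45). Except for column totals, the number called over all transcripts in each setting of this section is not given. A count of members can follow that number. Joined against paired gave 48 to 79. Fits to the 8 libraries compared gave 1 for paired against isolated and 0 for octet against paired, and leaving out 1 library gave 1 to 6 and 0 to 45 for these; the cause was not tested. Without octet replicate 3 the second was 38, without isolated replicate 3 it was 21, and without octet replicate 4 it was 1. Joined against isolated gave 0 under every alternative run.

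Replicate numbers were not taken to pair the libraries, since no label says what a number marks. Of 24 same-number pairs, 10 had a correlation over 0.1, and the range was -0.16 to 0.45. Pairs of different numbers ran from -0.49 to 0.42, and 7 of 16 libraries correlated best with their own number. Whether libraries of the same number share something was not tested. The replicate block gave 87 members for octet against isolated, 7 for paired against isolated and 34 for octet against paired. Without the block these were 45 upper and 33 lower, 2 and 2, and 2 and 11. The number called over all transcripts with the block is not given, so a change in the members was not set apart from a change over the whole table. Groups of 4 pools and the 23.4 to 33.8 reads behind 4 CPM limit what scarce members can show.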
